A study of Mus musculus with 24 samples.

Results

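The 9 genes of reactive gliosis and the acute phase response were followed across both tissues, both genotypes and both times of the series: Gfap, Vim, Serpina3n, Lcn2, Timp1, A2m, Cp, Cd44 and S100a6. They were taken by symbol from the platform annotation of the Affymetrix mouse genome array used, on which 23 of 45101 probe sets carried their names (9 of 18193 genes with a symbol). Gfap and Vim had 3 probe sets each, Cp had 8, Cd44 had 4 and each of the other genes had 1. Where a gene had several, the one with the highest mean signal stands for it below, and the further ones are given beside it. The tested genotype was the conditional knockout of NeuroD1 (cKO), in which floxed NeuroD1 alleles were combined with 1 Crx-Cre transgene, and the control mice carried the same floxed alleles and no Cre. Crx is active in photoreceptors and pinealocytes, so the transgene directs recombination to those cells. All mice were C57BL/6J of both sexes, aged 2 months and kept in 12 h of light and 12 h of darkness. The 8 groups were cKO and control retinas and cKO and control pineal glands, each at zeitgeber time 6 (ZT6, 6 h after lights on) and at ZT20 (in darkness). Each group had 3 pools of 6 tissues with 1 array per pool, 24 arrays in all, so the spread given below is between pools. The test used (limma) combines that spread of each gene with a spread estimated over all genes. The spread over all genes carried 9.1 of 17.1 degrees of freedom in the retina and 154.4 of 162.4 in the pineal gland. Pineal standard errors and p-values thus rest mostly on it, and little on a gene's own pools.

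Reactive gliosis is the response of astrocytes, and in the retina of the radially arranged Müller glia, to injury or disease of neighbouring neurons. Reactive glia enlarge, build up intermediate filaments such as Gfap and Vim, and secrete protease inhibitors and iron- and copper-binding proteins that the liver releases in the acute phase of inflammation. Cytokines of the interleukin-6 family, among them LIF, act through the receptor chain gp130 and the transcription factor Stat3 to induce many of these genes, and stressed photoreceptors are a known trigger of LIF production by Müller glia. Levels are given as array signal, the deposited linear intensity of a probe set in arbitrary units, and are compared only within a gene. Differences are on the log2 scale of signal plus 16, which understates changes of dim genes, with their standard error and an adjusted p from limma over all genes tested in the tissue, called where it is under 0.05.

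Promoter sequence is shown for the 4 genes with the largest rise in the cKO retina among those with a window in the RefSeq table, since motifs of the gp130 pathway may lie in such regions. The windows run from 250 bases before to 50 bases after the annotated start (RefSeq, GRCm38.p6), 5′ to 3′ on the gene's strand. Gfap lies at chr11:102897151-102897450 (minus strand), Serpina3n at chr12:104406458-104406757 (plus strand), Lcn2 at chr2:32387690-32387989 (minus strand) and Timp1 at chrX:20869916-20870215 (plus strand). Capitals mark matches to the motifs searched.
Gfap: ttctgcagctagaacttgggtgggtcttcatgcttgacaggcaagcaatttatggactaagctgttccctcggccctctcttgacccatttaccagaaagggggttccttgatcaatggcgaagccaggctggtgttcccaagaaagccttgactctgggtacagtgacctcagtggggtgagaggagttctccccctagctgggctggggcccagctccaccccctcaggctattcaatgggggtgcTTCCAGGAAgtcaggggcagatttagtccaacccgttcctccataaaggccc
Serpina3n: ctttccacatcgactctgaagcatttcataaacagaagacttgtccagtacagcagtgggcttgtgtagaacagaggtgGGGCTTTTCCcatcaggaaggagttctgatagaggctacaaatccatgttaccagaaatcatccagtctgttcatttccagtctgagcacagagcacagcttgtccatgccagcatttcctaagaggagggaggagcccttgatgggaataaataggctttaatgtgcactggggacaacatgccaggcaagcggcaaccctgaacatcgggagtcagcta
Lcn2: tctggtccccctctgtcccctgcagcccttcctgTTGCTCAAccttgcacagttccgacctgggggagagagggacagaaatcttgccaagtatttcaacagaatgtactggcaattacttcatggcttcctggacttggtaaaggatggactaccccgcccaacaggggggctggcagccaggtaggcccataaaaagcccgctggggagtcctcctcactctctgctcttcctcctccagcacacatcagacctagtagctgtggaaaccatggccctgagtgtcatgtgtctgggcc
Timp1: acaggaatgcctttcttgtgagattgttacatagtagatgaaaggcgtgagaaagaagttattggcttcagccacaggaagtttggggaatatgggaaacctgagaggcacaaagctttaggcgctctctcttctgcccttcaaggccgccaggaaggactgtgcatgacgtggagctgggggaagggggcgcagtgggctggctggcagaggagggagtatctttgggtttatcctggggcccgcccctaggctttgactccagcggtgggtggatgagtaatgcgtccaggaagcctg

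The 6 motifs listed here were searched on both strands in the windows of the 8 members that had one (A2m had none), namely TTCNNNGAA of STAT factors, TGANTCA of AP-1, TTGCNNAA of C/EBP, GGG followed by any 2 bases and TTTCC of NF-κB, and the E-boxes CAGATG and CAGCTG of basic helix-loop-helix factors such as Neurod1. The Gfap window held the STAT letters TTCCAGGAA beginning at position -2 from the start, as did 8.298% of 32851 RefSeq promoter windows of the same length. The NF-κB letters stood in the windows of Serpina3n (GGGCTTTTCC, beginning at position -171) and Vim, and in 1.629% of all windows. The C/EBP letters stood in Lcn2 (TTGCTCAA, beginning at position -216) and Cp, and in 10.8% of all windows. Cp also held the AP-1 letters, found in 7.808% of all windows, and CAGATG, found in 17.15%. CAGCTG, found in 16.3% of all windows, was in 0 of the 8, and the windows of Timp1, Cd44 and S100a6 held no match to any of the motifs. No 2 matches overlapped, and these are matches of letters in short windows, not sites shown to be bound.

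Neurod1 itself, read by the probe set with the higher mean, checked the genotype labels. Retinas at ZT6 gave 639, 774 and 293 with the cKO label, against 6967, 6554 and 5701 with the control label, and retinas at ZT20 gave 369, 3595 and 3582 with the cKO label, against 7617, 6698 and 7396 with the control label. Pineal glands at ZT6 gave 83.5, 29.1 and 30.9 with the cKO label, against 4647, 5268 and 5008 with the control label, and at ZT20 they gave 22.5, 1897 and 960 with the cKO label, against 3156, 4323 and 3387 with the control label. Pools 2 and 3 labelled cKO at ZT20 thus held Neurod1 at 49.7% and 49.5% of the mean control signal (retina) and at 52.4% and 26.5% of it (pineal gland), which goes against their label, and the ZT20 values of the 9 genes are also given without them. The sources used here do not say how these pools came to hold Neurod1 signal. The arrays did not share a common level. Array medians ran from 125.9 to 183.1 in cKO retinas and from 107.8 to 137.7 in control retinas, and from 107.1 to 131 in cKO and from 130 to 158.8 in control pineal glands. The median log2 difference over all 11693 genes tested in the retina was above 0, at 0.29 at ZT6 and 0.12 at ZT20. Averaged over both times, 3263 genes were higher and 272 lower in cKO retinas as deposited, 1590 and 1396 after quantile normalisation, 1743 and 1227 after trimmed-mean scaling, and 1104 and 1808 after median centring. At ZT6 the split was 2721 higher and 133 lower as deposited and 1142 and 835 after quantile normalisation, and at ZT20 642 and 119 as deposited and 667 and 559 after it. The tissues carried their markers, the 11 rod genes summing to 87544 to 101396 (median 92335) in cKO and 89383 to 108309.8 (median 98972) in control retinas, and the 9 pinealocyte genes to 45240.2 to 52572 (median 47681) in cKO and 43831 to 52876 (median 48176) in control pineal glands.

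In the retina, loss of Neurod1 went with higher signal of the whole group. All 9 genes were called higher in cKO retinas at ZT6, where 23.3% of all genes tested were called higher, and 8 of 9 at ZT20, where 5.49% were, the exception at ZT20 being Vim. In the mean of both times 9 of 9 were called, against 27.9% of all genes, with a median log2 difference of 3.03 over the 9 genes and of 0.20 over all genes. Every cKO pool lay above every control pool for all 9 genes at both times, a pattern seen for 36.5% of all genes at ZT6 and for 17.9% at ZT20. All 9 passed the filter on low signal in both tissues, but Timp1 passed it in the retina only through cKO pools, lying above the array median on 0 of 6 control arrays, so the filter itself fixed that it would differ. Without Timp1 the counts were 8 of 8 at ZT6, 7 of 8 at ZT20 and 8 of 8 in the mean. With no filter 9 of 9 were called at ZT6 (13.3% of all genes higher), 8 at ZT20 (4.01%) and 9 in the mean (19%). In pooled tissue, more glial cells and more RNA per glial cell cannot be told apart.

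The intermediate filament genes differed in size of change. Gfap, the filament protein of astrocytes that healthy Müller glia hold at low levels, had signals of 2334, 2987 and 2565 in cKO retinas at ZT6, against 509.9, 309.6 and 390 in control retinas. At ZT20 it had 3864, 2003 and 2868 in cKO retinas, against 398, 175 and 240 in control retinas. The lowest cKO pool at either time was thus far above the highest control pool. The log2 difference was 2.68 ± 0.27 at ZT6 (adjusted p = 5.9e-06) and 3.37 ± 0.27 at ZT20 (adjusted p = 6.1e-07), which are 6.4-fold and 10.4-fold. Its 2 further probe sets gave 2.66 and 3.38 at ZT6 and 3.29 and 3.54 at ZT20. Vim, the filament protein that Müller glia make at all times and that fibroblasts and vessels make too, had 8137, 9559 and 9092 in cKO retinas at ZT6, against 6578, 5114 and 7732 in control retinas, and 10499, 9046 and 8886 in cKO retinas at ZT20, against 8682, 5800 and 6649.7 in control retinas. Its groups did not overlap, but the gap was small beside the spread. The difference of Vim was 0.48 ± 0.14 at ZT6 (adjusted p = 0.021) and 0.44 ± 0.14 at ZT20 (adjusted p = 0.067), which stood 0.19 and 0.32 above the median shift of all genes. The call on Vim in the mean of both times (0.46 ± 0.10) ended under median centring (0.20, adjusted p = 0.24) and trimmed-mean scaling (0.27, adjusted p = 0.061). Its ZT6 call also ended under those settings and under quantile normalisation (0.37, adjusted p = 0.059), and without control pool 2 (0.32, adjusted p = 0.13), cKO pool 2 (0.43, adjusted p = 0.11) or cKO pool 3 (0.47, adjusted p = 0.057). At ZT20 its 2 further probe sets passed where the main one did not, at 0.46 (adjusted p = 0.0498) and 0.74 (adjusted p = 0.029), and with pool number as a block the main one passed too (adjusted p = 0.042).

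The secreted protease inhibitors rose strongly at both times. Serpina3n, an inhibitor of serine proteases and a common marker of reactive astrocytes, had 1889, 2762 and 2482 in cKO retinas at ZT6, against 193, 98.3 and 449 in control retinas, and 3583, 2392 and 3195 in cKO retinas at ZT20, against 414, 133 and 222 in control retinas. Control pools of Serpina3n differed among themselves by several fold, and still none came near a cKO pool. Its log2 difference was 3.40 ± 0.40 at ZT6 (adjusted p = 2.8e-05) and 3.61 ± 0.40 at ZT20 (adjusted p = 2.1e-05). A2m, which encodes the broad protease trap alpha-2-macroglobulin, an acute phase protein in rats, had 3010.1, 5176 and 4105 in cKO retinas at ZT6, against 422, 322 and 564 in control retinas. At ZT20 A2m had 5502, 3659 and 5402 in cKO retinas, against 693, 372 and 494 in control retinas. Its difference was nearly the same at both times, 3.19 ± 0.25 at ZT6 and 3.20 ± 0.25 at ZT20, 9.11-fold and 9.21-fold (adjusted p = 4.7e-07 and 4.9e-07). Timp1, the inducible tissue inhibitor of matrix metalloproteinases, had 342, 491 and 481 in cKO retinas at ZT6, against 30.5, 17.3 and 34.9 in control retinas, and 539, 277 and 562 in cKO retinas at ZT20, against 58, 18.5 and 53.4 in control retinas. In control retinas Timp1 was below the array median in every pool, and no detection calls were used here, so its control level may be background and its fold a low estimate. The log2 difference of Timp1 was 3.39 ± 0.33 at ZT6 and 3.02 ± 0.33 at ZT20, given as a description since cKO pools alone carried it past the filter. In the fit with no filter its adjusted p was 1.5e-05 at ZT6 and 6.0e-05 at ZT20.

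The metal-handling genes differed strongly in size. Lcn2, a lipocalin that binds iron-carrying siderophores and is also stored in neutrophil granules, had 1277, 2222 and 1378 in cKO retinas at ZT6, against 190.5, 119.9 and 221 in control retinas. At ZT20 it had 3478, 1445 and 3016 in cKO retinas, against 211, 101 and 116 in control retinas. No cKO pool came near a control pool, and in the mean of both times the difference of Lcn2 was the largest of the 9 (3.56 ± 0.23). It was 3.08 ± 0.33 at ZT6 (adjusted p = 1.1e-05) and 4.04 ± 0.33 at ZT20 (adjusted p = 6.7e-07), 8.46-fold and 16.4-fold. Cp encodes ceruloplasmin, a copper enzyme that oxidises iron and that glia also carry on their surface. It had 4361, 5384 and 4694 in cKO retinas at ZT6, against 1882, 1495 and 2073 in control retinas, and 5996, 4055 and 5687 in cKO retinas at ZT20, against 3150.3, 1989.7 and 2305 in control retinas. The groups of Cp did not overlap, with a smaller difference of 1.41 ± 0.17 at ZT6 and 1.08 ± 0.17 at ZT20 (adjusted p = 4.3e-05 and 8.2e-04). Its 6 further probe sets that passed the filter gave 1.00 to 1.81 at ZT6 and 0.68 to 1.35 at ZT20, each called.

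Cd44 and S100a6 made up the rest of the group. Cd44, the cell-surface receptor for hyaluronan, which in the retina is found on the apical processes of Müller glia, had 2098, 2668 and 2744 in cKO retinas at ZT6, against 552, 319 and 1094 in control retinas, and 3534, 2818 and 2174 in cKO retinas at ZT20, against 941, 509 and 648 in control retinas. Its difference was 2.07 ± 0.32 at ZT6 and 2.02 ± 0.32 at ZT20 (adjusted p = 3.6e-04 and 7.3e-04), and the further probe set that passed the filter gave 1.98 and 2.22. S100a6, a small calcium-binding protein also called calcyclin, had 2930.1, 4810.1 and 4958 in cKO retinas at ZT6, against 1818, 713 and 2164 in control retinas, and 5666, 3292 and 4015 in cKO retinas at ZT20, against 1814, 457 and 736 in control retinas. Control pools of S100a6 spread widely, and the lowest cKO pool at ZT6 was not far above the highest control pool. Its difference was 1.53 ± 0.41 at ZT6 (adjusted p = 0.015) and 2.29 ± 0.41 at ZT20 (adjusted p = 0.0021). The ZT6 call on S100a6 ended under median centring (1.22, adjusted p = 0.065) and trimmed-mean scaling (1.27, adjusted p = 0.0506), and without control pool 2 at ZT6 (1.05, adjusted p = 0.097). Without cKO pool 2 or pool 3 at ZT6 it was 1.42 (adjusted p = 0.083) and 1.40 (adjusted p = 0.0539). The remaining 7 genes other than Vim and S100a6 were called at both times in all 23 alternatives run.

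**Figure D1:**
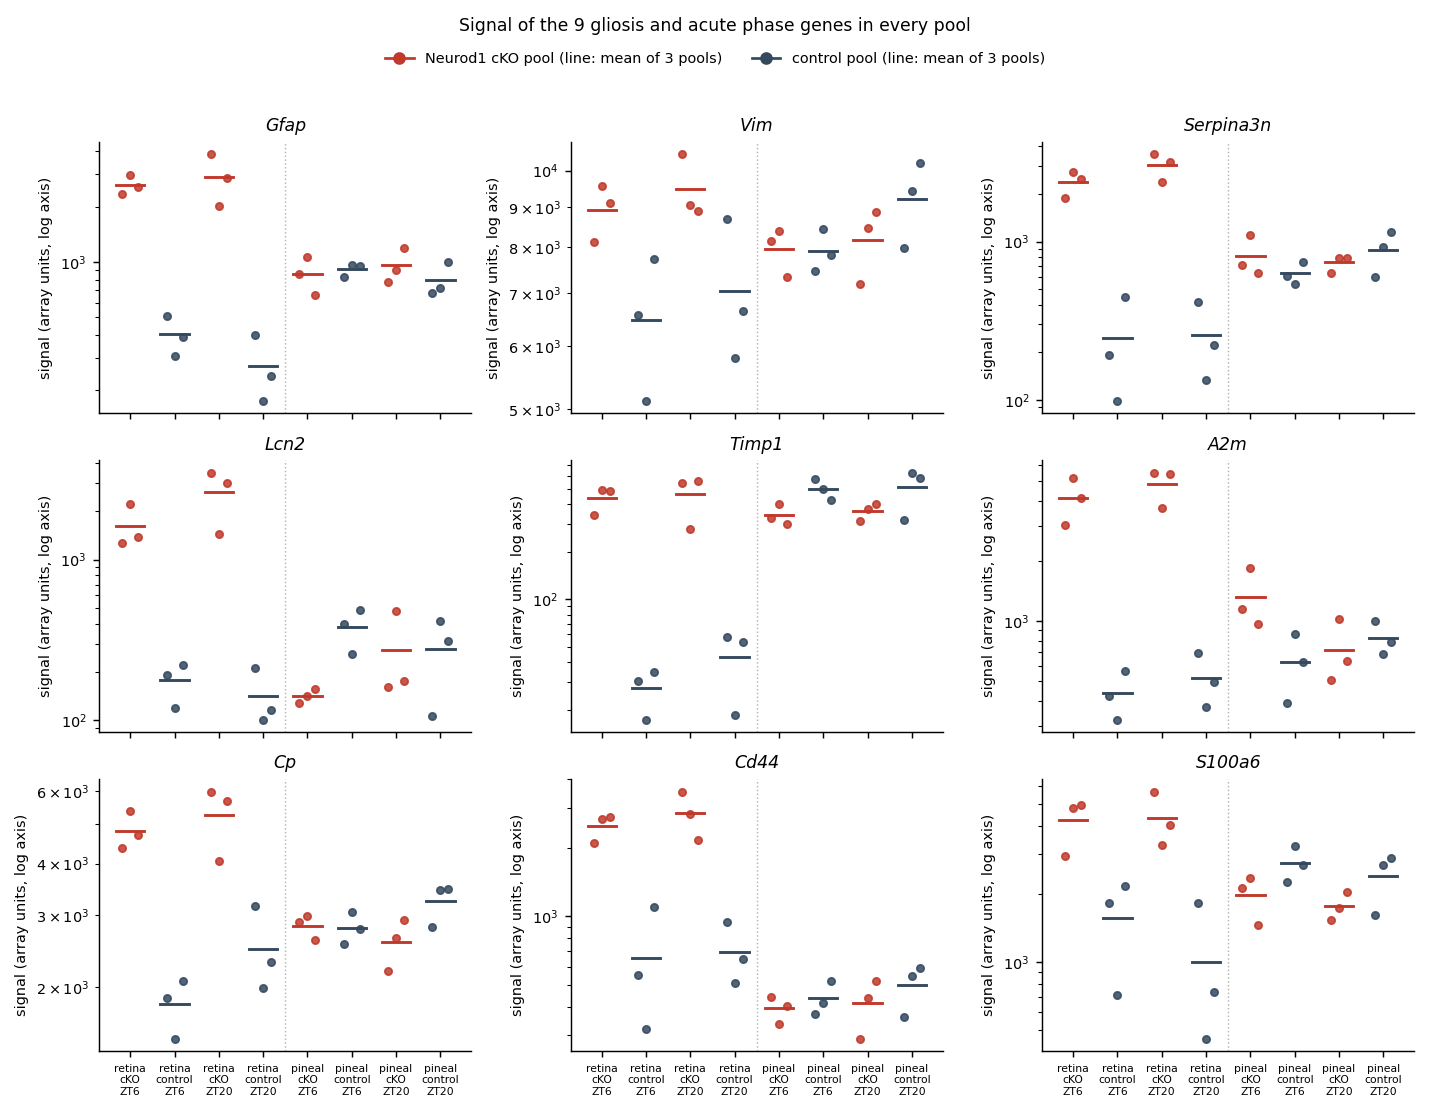
Array signal (arbitrary units, log axis) of each of the 9 genes in every pool, with retina groups on the left of the dotted line and pineal groups on the right, cKO beside control at each time; points are pools and lines the mean of 3. In the retina all cKO points lie above all control points of the same time for every gene, while in the pineal gland the genotypes overlap for most.

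The order of pools within a group was much the same from gene to gene. Control pool 2 read lowest of its group for 9 of 9 genes at ZT6 and again at ZT20, and control pool 1 at ZT20 read highest for 9 of 9. Among cKO pools, pool 1 was lowest for 9 of 9 at ZT6 and highest for 8 of 9 at ZT20, and pool 2 at ZT20 was lowest for 7 of 9. Part of this was shared by all genes, since control pool 2 was lowest for 47.9% of all genes at ZT6 and 79.1% at ZT20, and control pool 1 at ZT20 highest for 42.4%. Pool 1 of cKO retinas was lowest for 73.4% of all genes at ZT6 and highest for 37% at ZT20. Pool 2 of cKO retinas at ZT20 was lowest for 72.4% of all genes, a share near that of the 9. After quantile normalisation, which removes such a shift, control pool 2 was still lowest for 9 of the 9 genes at ZT6 and 7 of 9 at ZT20, against 43.8% and 33.6% of all genes. Without control pool 2 of both times, an alternative chosen after seeing these values, the count was 8 of 9 at ZT6, 8 of 9 at ZT20 and 9 of 9 in the mean. Vim at ZT6 was the only call to end (0.32, adjusted p = 0.082), and the other 8 genes at ZT6 ran from 1.05 for S100a6 to 3.21 for Timp1.

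Markers of neighbouring tissue varied between these pools too. Summed signal of 9 lens genes was 18683, 18430.2 and 69488 in cKO pools at ZT6, against 58139, 31967 and 59843 in control pools, and 58142, 55309 and 31169 in cKO pools at ZT20, against 54628, 21296 and 21292 in control pools. Of the lens genes 0 of 9 were called in the mean of both times. The sum of 8 genes of the retinal pigment epithelium was 10959.5, 13602 and 21163 in cKO pools at ZT6, against 10265, 9414 and 15412 in control pools, and 19522, 23888 and 23894 in cKO pools at ZT20, against 18658, 10740.2 and 11466 in control pools. In the mean of both times 27.9% of all genes tested were higher. Of the pigment epithelium genes 4 of 7 tested were higher, namely the pigment genes Mlana (2.40 ± 0.67, adjusted p = 0.013), Tyrp1 (1.68), Dct (1.47) and Tyr (1.20), and 0 of 7 without control pool 2 of both times. The fibroblast and meninges list (14 genes) summed to 3576 to 8623 (median 6214) in cKO and 2177 to 5436 (median 3474) in control retinas, with 5 of 10 tested genes higher (3 of the 6 that passed the filter on control pools alone), led by Fbln1 (2.46 ± 0.58, adjusted p = 0.0049). The part of adhering tissue in the retinal rise of the 9 genes was not tested.

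**Figure D2:**
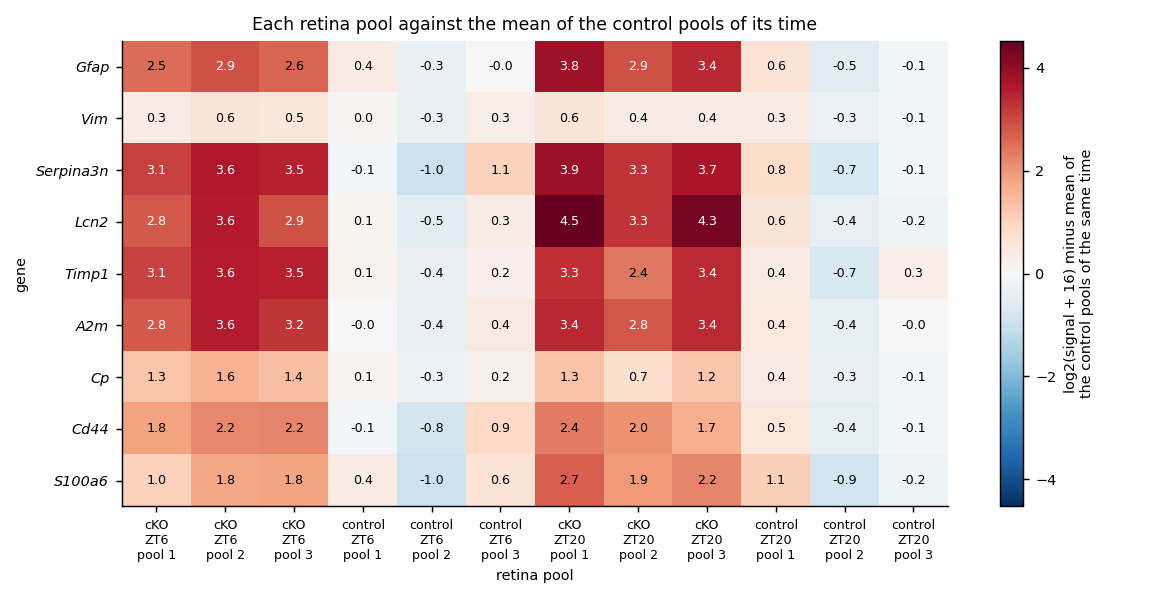
Log2(signal + 16) of each retina pool minus the mean of the control pools of the same time, for the 9 genes (rows) and 12 pools (columns, cKO before control at each time). All cKO cells are positive, from 0.3 for Vim to 4.5 for Lcn2, and control pool 2 is negative for every gene at both times.

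Without the pools labelled cKO at ZT20 that kept Neurod1 signal, so that cKO pool 1 stood alone and was assumed to vary like the other groups, the ZT20 differences were larger for all 9 genes. Gfap was 3.83 (adjusted p = 2.8e-07), Lcn2 4.53 (adjusted p = 2.0e-07), Serpina3n 3.86, A2m 3.41, Timp1 3.31 and S100a6 2.71, each called. Cd44 was 2.36 and Cp 1.29, both called, and Vim was 0.60 (adjusted p = 0.063). The count of called genes was 8 of 9, as with these pools. The difference between the pool with low Neurod1 signal and the others rests on 1 pool and was not tested.

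Other genes of gliosis were examined in the retina. Of 23 tested genes on a list of further reactive astrocyte and Müller genes, 17 were higher and 0 lower in the mean of both times. Of all genes tested, 27.9% were higher in that mean. The median difference of the list was 0.87, against 0.20 over all genes. Of the 23, 6 passed the filter only with the help of cKO pools, so that their difference was in part fixed by the filter, and among the other 17 there were 12 higher. With no filter 22 of 32 listed genes on the array were called higher, where 19% of 18193 genes were, a count added after seeing the data. The largest were the metalloreductase Steap4 (2.93 ± 0.19, adjusted p = 1.4e-08), the complement inhibitor Serping1 (2.89 ± 0.21, adjusted p = 4.6e-08), the interferon-induced GTPase Gbp2 (2.30 ± 0.20) and the oncostatin M receptor Osmr (2.05 ± 0.14). Serping1, for one, averaged 2243 in cKO retinas at ZT6, against 293 in control retinas. Other array scalings left 13 to 16 of these 23 called higher and 0 lower, with fewer of all genes called higher too. Of genes of LIF, gp130 and Stat3 signalling 12 of 16 tested were called higher, with 0 lower as deposited and 1 lower under each of the 3 other scalings. Here 5 of the 16 passed the filter only with cKO pools, and 7 of the other 11 were higher. With no filter 14 of 22 listed genes were called higher (median 0.82, against 0.17 over all genes). Leading them were the endothelin Edn2 (3.12 ± 0.23, adjusted p = 5.9e-08), which stressed photoreceptors are known to release, the transcription factor Cebpd (2.80 ± 0.16), the feedback inhibitor Socs3 (2.52 ± 0.22) and the NF-κB cofactor Bcl3 (2.39 ± 0.23). The cytokine Lif itself (1.94 ± 0.21, adjusted p = 4.3e-06) and Stat3 (1.53 ± 0.15, adjusted p = 2.0e-06) were among the 12. The genes named from both lists were ranked without regard to how they passed the filter. Genes that passed only with cKO pools are among those called in each list, and their adjusted p is a description only.

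Of 23 genes of an acute phase list on the array, most of them liver genes, 5 passed the signal filter. Of these 5, 4 were higher. They were the metallothioneins Mt2 (1.68 ± 0.12, adjusted p = 2.9e-08) and Mt1 (1.07 ± 0.11), the interleukin-1 receptor Il1r1 (1.32 ± 0.14) and the zinc and iron transporter Slc39a14 (0.56 ± 0.15, adjusted p = 0.0097). With no filter, again a count added after seeing the data, 5 of the 23 were called higher, where 19% of all genes were. The median of the 23 was then 0.15, against 0.17 over all genes. In each of the 4 retina groups, 18 of the 23 were below the array median in every pool. Relatives of the members were higher in 11 of 14 tested (median 0.78, against 0.20 over all genes), or 10 of the 13 that passed on control pools alone. They were led by the neuronal filament gene Prph (1.43 ± 0.19, adjusted p = 3.2e-05) and by S100a1 (1.08 ± 0.18), S100a10 (1.08 ± 0.18) and S100a16 (1.07 ± 0.17), relatives of S100a6. Genes that mark Müller glia and astrocytes irrespective of reactivity were higher in 14 of 17 tested, where 27.9% of all genes were. Their median was 0.47, against 0.20 over all genes, and 14 of the 16 that passed on control pools alone were higher. The largest were the potassium channel Kcnj10 (1.16 ± 0.20, adjusted p = 4.5e-04), Aldh1l1 (1.08 ± 0.16), S100b (0.94 ± 0.18) and Apoe (0.90 ± 0.11). Under median centring 8 of those 17 were higher and 1 was lower, and their median was 0.21. Of 11 rod genes 0 were higher and 3 lower, namely Prph2 (-0.40 ± 0.08, adjusted p = 9.0e-04), Pde6b (-0.26) and Nrl (-0.22), where 2.33% of all genes were lower. Under the other scalings 6 to 8 of the rod genes were lower, but so were far more of all genes, as counted above.

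Microglia and macrophage genes were dim in control retinas, and 5 of the 10 tested passed the filter only with cKO pools, so that the difference of these was in part fixed by the filter. The other 5 were all called higher in the mean of both times. With no filter, again a count added after seeing the data, 14 of 15 listed genes were called higher (median 1.54, against 0.17 over all genes). The largest were the complement subunits C1qc (2.36 ± 0.20, adjusted p = 3.4e-07), C1qb (2.27 ± 0.23) and C1qa (2.13 ± 0.20), and the adaptor Tyrobp (2.03 ± 0.20). This ranking took in genes that passed the filter only with cKO pools, whose adjusted p is a description only. The summed signal of the 15 listed genes was 8703 to 13526 (median 11164) in cKO retinas and 2858 to 4178 (median 3262) in control retinas, without overlap, and 0 of the 15 were at 0 in every pool of a group. Cd44 and Vim can also be made by such cells, and the part of microglia or macrophages in the rise of the 9 genes was not tested. Neutrophil and marrow genes were dim in the retina, with 1 of 11 passing the filter (Mmp9, 0.50 ± 0.16, adjusted p = 0.023) and a summed signal of 1042 to 1814 (median 1312) in cKO and 714 to 1245 (median 968) in control retinas. Of 9 endothelial and mural genes 3 were higher, near the 27.9% of all genes (Kdr 0.73, Flt1 0.58, Rgs5 0.45).

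The genes whose signal ran most like Gfap over the 12 retina arrays were Pdlim3 (Pearson r = 0.988), Pde3b (0.987), the chemokine Ccl12 (0.987), Tyrobp (0.986) and the microglial receptor Clec7a (0.985). Those most like Serpina3n were Tmem176a (0.992), Serping1 (0.992), the class I light chain B2m (0.986), the receptor kinase Axl (0.985) and Ccn1 (0.984). These correlations span 2 genotypes that lie apart, 6 arrays each, so the genotype difference enters each, and they are a description only. Ccl12, for example, averaged 295 in cKO retinas at ZT6, against 32.4 in control retinas, and 329 in cKO retinas at ZT20, against 25.1 in control retinas. The control means of Ccl12, Clec7a (28.1 at ZT20 and 40.0 at ZT6) and Ccn1 (53.7 and 50.2) lay below every control array median. These genes passed the filter only with the help of cKO pools, so their difference was in part fixed by the filter.

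Day and night were compared in the retina. Between ZT20 and ZT6 none of the 9 was called in cKO retinas, where 0.0513% of all genes were called in either direction, nor in control retinas, where 0.137% were. With so few calls among all genes, a count of 0 of 9 says nothing particular about these genes. In cKO retinas the log2 differences ran from 0.02 for Timp1 to 0.65 for Lcn2 (95% interval -0.05 to 1.34). In control retinas they ran from -0.72 for S100a6 (95% interval -1.59 to 0.15) to 0.43 for Cp. The cKO effect itself did not pass a test of difference between times for any of the 9 genes or any other gene (0% of all genes, with 699 of 11693 at an unadjusted p under 0.05 in limma). Lcn2 had the largest estimate, a cKO effect larger by 0.96 ± 0.46 at ZT20 (95% interval -0.02 to 1.94), and Gfap was larger by 0.70 ± 0.38 (adjusted p = 0.80). Intervals of this width leave room for differences of 1 log2 unit or more in several genes.

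**Figure D3:**
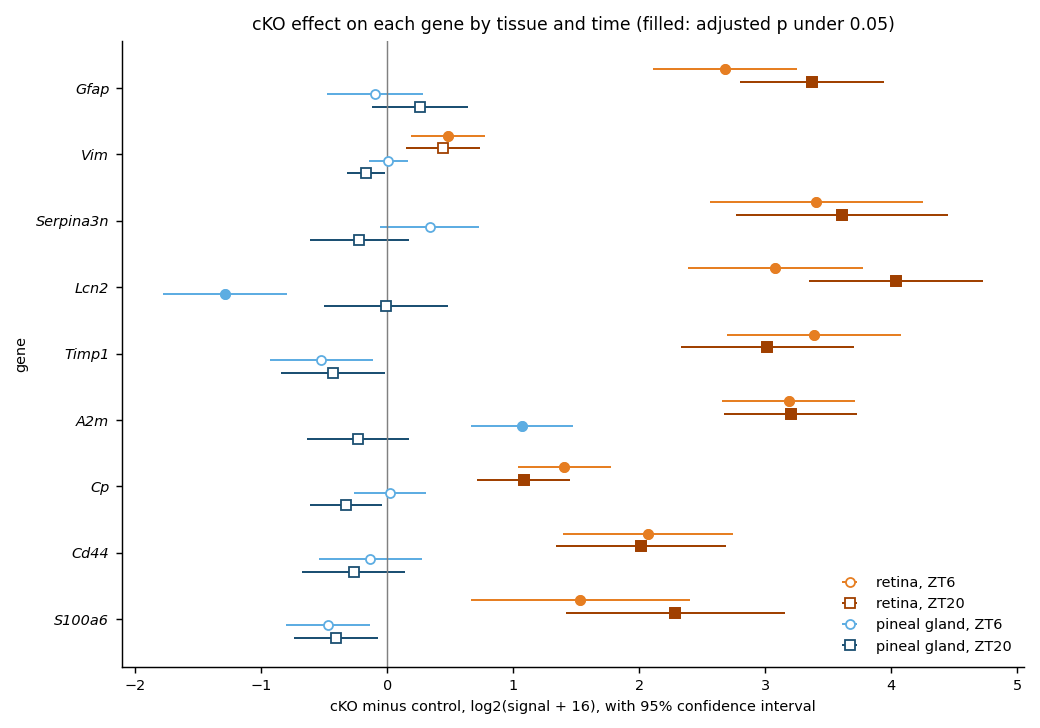
Difference in log2(signal + 16), cKO minus control, for each of the 9 genes in the retina (orange and brown) and pineal gland (light and dark blue) at ZT6 (circles, upper of each pair) and ZT20 (squares), with 95% confidence intervals; filled symbols have an adjusted p under 0.05. Retina values run from 0.44 to 4.04 and all but Vim at ZT20 are called, while in the pineal gland 2 are called, A2m and Lcn2 at ZT6.

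In the pineal gland, where cKO pools at ZT6 held 0.585% to 1.68% of the mean control signal of Neurod1, the members did not rise together. At ZT6, 2 of 9 genes were called, 1 in each direction, with 1.94% of all genes called. A2m was higher, with signals of 1152, 1833 and 969 in cKO glands, against 391, 866 and 627 in control glands (1.07 ± 0.21, adjusted p = 2.2e-04), and every cKO pool lay above every control pool. Lcn2 was lower, with 128, 143 and 157 in cKO glands, against 399.8, 259.9 and 485 in control glands (-1.29 ± 0.25, adjusted p = 2.4e-04), and every cKO pool lay below every control pool. Of all genes, 7.51% had every cKO pool above every control pool and 8.21% had every one below. Timp1, which was not called, was among those below (299 to 402 in cKO glands, against 424 to 578 in control glands). Gfap had 862, 1065 and 663 in cKO glands at ZT6, against 832, 957 and 946 in control glands, with overlapping groups and a difference of -0.10 ± 0.19 (95% interval -0.48 to 0.28). Serpina3n had 715, 1097 and 633 in cKO glands, against 610.2, 538 and 742 in control glands (0.34 ± 0.20, 95% interval -0.06 to 0.73). The upper bounds of both intervals lie below the retinal differences at ZT6. The calls on A2m and Lcn2 ended under quantile normalisation (A2m 1.09, adjusted p = 0.059, and Lcn2 -1.13, adjusted p = 0.14), and without control pool 1 (A2m 0.77, adjusted p = 0.12, and Lcn2 -1.24, adjusted p = 0.0501).

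At ZT20, 0 of 9 genes were called in the pineal gland, with 1.02% of all genes called in either direction. At an unadjusted p under 0.05, 4 of the 9 passed, all with lower signal in cKO glands. In either direction 1178 of 11936 genes (9.87%) passed, and the median difference of all genes was -0.15. The differences ran from -0.43 for Timp1 to 0.26 for Gfap. Gfap had 780, 907 and 1184 in cKO glands, against 675, 719 and 994 in control glands, and Lcn2 had 162, 480.5 and 175 in cKO glands, against 106, 412 and 313 in control glands, where the second cKO pool and the first control pool stood apart from their groups. Without cKO pools 2 and 3, Cp (-0.55, adjusted p = 0.0468) and Vim (-0.35, adjusted p = 0.037) were called lower in the remaining cKO pool. Without control pool 1, S100a6 (-0.66, adjusted p = 0.011), Timp1 (-0.73, adjusted p = 0.033) and Vim (-0.27, adjusted p = 0.0489) were called lower. In the mean of both times 3 of 9 were lower, where 2.84% of all genes were called lower, namely Lcn2 (-0.65 ± 0.18, adjusted p = 0.016), S100a6 (-0.44 ± 0.12, adjusted p = 0.017) and Timp1 (-0.48 ± 0.15, adjusted p = 0.0455). These 3 kept their sign under the 3 other scalings and lost the call under each, and 0 of them was called without control pool 2 at ZT20 (Lcn2 -0.47, S100a6 -0.39 and Timp1 -0.39).

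Day and night were compared in the pineal gland too. None of the 9 was called between ZT20 and ZT6 in control glands, where 8.54% of all genes were called in either direction. In cKO glands 2 of 9 were called, with 11.5% of all genes called, A2m lower at ZT20 (-0.86 ± 0.21, adjusted p = 0.0012) and Lcn2 higher (0.70 ± 0.25, adjusted p = 0.049). Without cKO pools 2 and 3 at ZT20 the difference of Lcn2 was 0.17 (adjusted p = 0.72), and with pool number as a block it was 0.70 (adjusted p = 0.067). The cKO effect differed between times for 1 of 9 genes, with 0.36% of all genes called. That was A2m, whose effect was lower at ZT20 than at ZT6 by 1.30 on the log2 scale (-1.30 ± 0.29, adjusted p = 0.012). The A2m call ended without cKO pool 1 at ZT20, with -1.08 (adjusted p = 0.064), without cKO pool 3 at ZT20, with -1.24 (adjusted p = 0.16), without cKO pool 2 at ZT6, with -1.04 (adjusted p = 0.13), and without control pool 1 at ZT6 (adjusted p = 0.64). The effect on Lcn2 was higher at ZT20 by 1.28 ± 0.35 (adjusted p = 0.081), and without 1 pool it was called in 5 of 12 cases, up to 1.65 (adjusted p = 0.001) without control pool 2 at ZT20.

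Lists of other cell types moved with these pineal values. At ZT6 8 of 12 choroid plexus genes were higher in cKO glands (median 0.70), led by Kl, which encodes Klotho (1.05 ± 0.16, adjusted p = 9.2e-07), and Car12 (1.04 ± 0.21). All 7 tested neutrophil and marrow genes were lower (median -1.52), led by the calgranulins S100a8 (-2.07 ± 0.23, adjusted p = 4.0e-12) and S100a9 (-1.64 ± 0.19). Of all genes, 0.737% were called higher and 1.2% lower at ZT6, with a median of 0.025. With no filter 0.0165% of all genes were called higher at ZT6 and 0.165% lower. Under median centring, quantile normalisation and trimmed-mean scaling 12, 0 and 0 of the choroid plexus genes were called higher and 7, 2 and 3 of the neutrophil and marrow genes lower. The summed signal of the 11 neutrophil and marrow genes was 3374, 3581 and 2946 in cKO glands at ZT6, against 13224, 6939.8 and 13229.7 in control glands, and 3681, 8502 and 3516 in cKO glands at ZT20, against 2115, 7760 and 7028 in control glands. The 6 of 12 pineal pools with the highest Lcn2 signal (259.9 to 484.7, against 105.8 to 175.4 in the rest) were the same 6 with the highest neutrophil and marrow sum (6939.8 to 13229.7, against 2115 to 3681). For A2m and the choroid plexus sum, 5 of the 6 highest pools were shared. The choroid plexus sum was 50231, 57505 and 49835 in cKO glands at ZT6, against 31862, 44660.5 and 36690.2 in control glands. At ZT20 it was 37889, 52609 and 38802 in cKO glands, against 46038, 50757 and 31253 in control glands, and 0 of 12 genes were called. The choroid plexus sums of the 6 pools with the highest A2m overlapped those of the rest. No correlation is given, and the part of blood cells or choroid plexus in the pineal values was not tested.

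**Figure D4:**
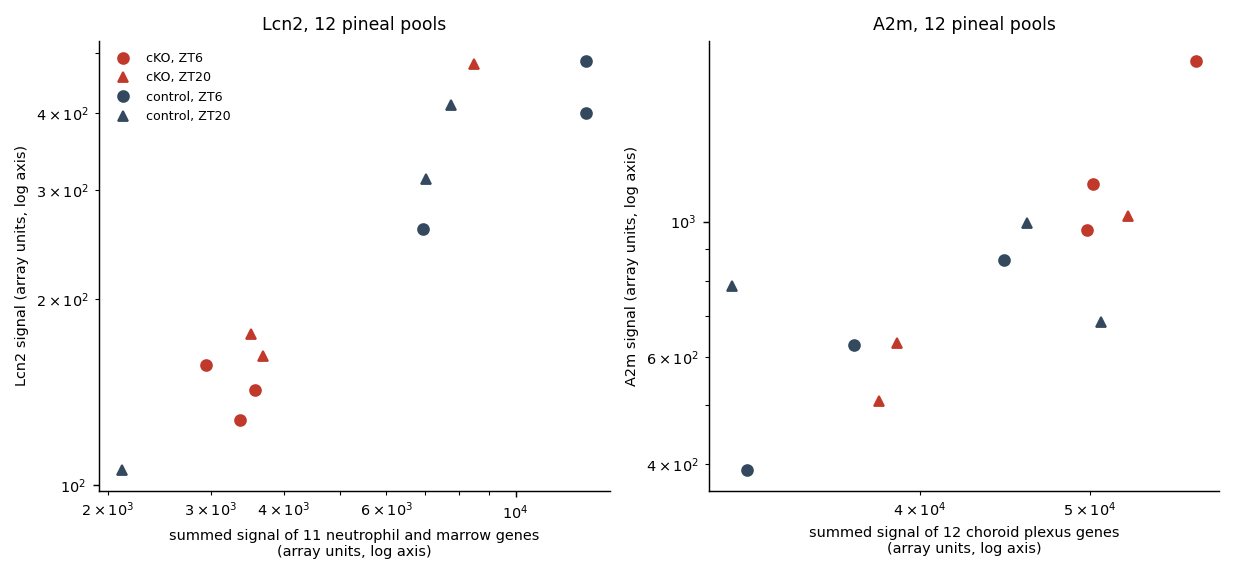
Signal of Lcn2 against the summed signal of 11 neutrophil and marrow genes (left) and of A2m against that of 12 choroid plexus genes (right) in the 12 pineal pools, both axes logarithmic, with cKO in red, control in dark blue, circles for ZT6 and triangles for ZT20. The 6 pools with Lcn2 above 259 are those with the highest neutrophil and marrow sums, 3 of them control pools at ZT6.

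The gliosis lists were examined in the pineal gland too, where 378 of 11936 genes were called in the mean of both times, 39 higher and 339 lower. There 0 of 25 further reactive genes were higher and 3 lower (Tnc -0.82 ± 0.15, Iigp1 -0.63 and Psmb8 -0.58). Of LIF, gp130 and Stat3 genes 0 of 13 were called, and of acute phase genes 0 of 6. Microglia and macrophage genes were lower in 5 of 13, where in the retina they were higher, led by Tyrobp (-0.58 ± 0.13, adjusted p = 0.0015). The 15 microglia and macrophage genes summed to 14040 to 19757 (median 17289.6) in cKO glands and 17600.3 to 22388 (median 21799) in control glands. Under median centring 4 of the LIF, gp130 and Stat3 genes and 3 of the acute phase genes were called higher, along with 5014 of 11936 genes in all, so that the pineal directions depend on how arrays are scaled. Of the remaining lists, 6 of 14 fibroblast and meninges genes, 2 of 12 relatives of the members (S100a4 -0.56 and S100b -0.47), 6 of 7 neutrophil and marrow genes, 1 of 15 glial identity genes and 1 of 11 endothelial and mural genes were lower, 7 of 12 choroid plexus genes were higher and 0 of 9 pinealocyte genes were called. With no filter 0 of 12 choroid plexus genes were called higher. Lower were then 1 of 11 neutrophil and marrow genes, 3 of 14 fibroblast and meninges genes and 1 of 15 microglia and macrophage genes. Of 32 further reactive genes 1 was lower, and of the relatives, glial identity genes and endothelial and mural genes 0. Of all 18193 genes 0.011% were called higher with no filter and 0.759% lower. In the retina the choroid plexus list had 3 of 11 genes higher and 1 lower, and the pinealocyte list 3 of 6 higher and 1 lower. Of all genes tested in the retina, 27.9% were higher and 2.33% lower. The choroid plexus share higher was thus near that of all genes.

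**Figure D5:**
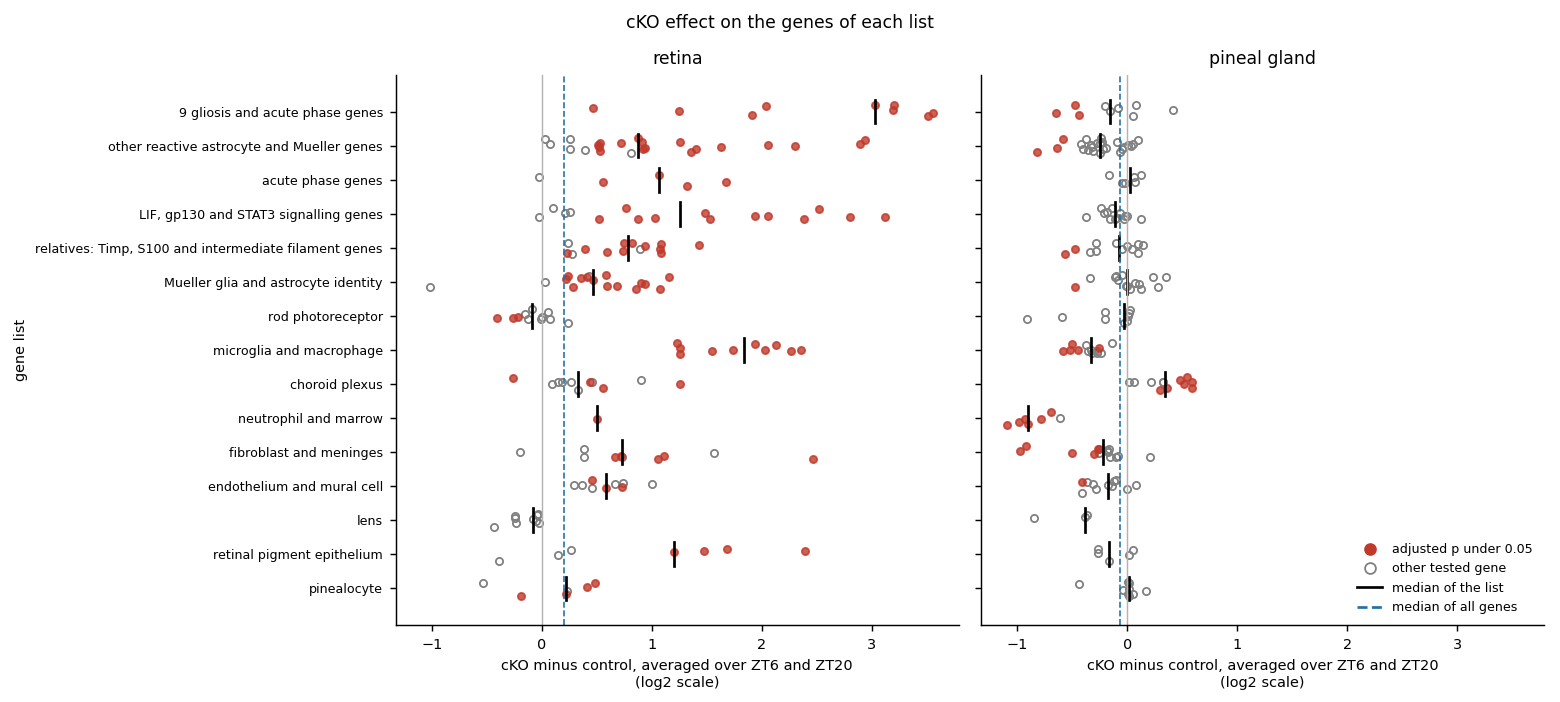
Log2 difference, cKO minus control averaged over ZT6 and ZT20, of every tested gene of each list (rows) in the retina (left) and pineal gland (right); red points have an adjusted p under 0.05, black bars are list medians and the dashed line is the median of all genes. The 9 members have a median of 3.03 in the retina, and a gene that passed the signal filter only with cKO pools, as Timp1 and 5 of the 10 microglia and macrophage genes did, is drawn like the rest.

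Both tissues were set against each other in 1 fit of all 24 arrays, which took every array as independent. Whether same-numbered retina and pineal pools came from the same mice was not checked. The cKO effect was higher in the retina than in the pineal gland for 9 of 9 genes, where 20.5% of 12881 genes were. The difference was largest for Lcn2 (4.21 ± 0.39, adjusted p = 5.4e-09), Timp1 (3.68 ± 0.29, adjusted p = 2.0e-10) and Serpina3n (3.45 ± 0.35, adjusted p = 2.5e-08). It was 2.95 ± 0.25 for Gfap, 2.78 ± 0.29 for A2m, 2.35 ± 0.35 for S100a6, 2.24 ± 0.30 for Cd44 and 1.40 ± 0.16 for Cp. For Vim it was 0.54 ± 0.13 (adjusted p = 0.0025), a call that ended under median centring (0.02, adjusted p = 0.93) and trimmed-mean scaling (0.28, adjusted p = 0.10). Without pools 2 and 3 labelled cKO at ZT20, 9 of 9 were called, from 0.71 for Vim to 4.72 for Lcn2.

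The tissues also differed in their resting levels. In control animals 8 of 9 genes were lower in the retina than in the pineal gland, where 51.3% of all genes were lower, from -0.35 for Vim to -3.37 for Timp1. Cd44 was the exception (0.44 ± 0.21, adjusted p = 0.06), and its further probe set that passed the filter gave 0.06 (adjusted p = 0.79). Gfap averaged 403 ± 101 in control retinas at ZT6, against 911 ± 69.1 in control pineal glands (SD, n = 3 each), and Timp1 averaged 27.6 ± 9.16 in control retinas, against 499 ± 77.1 in control pineal glands. In cKO animals 7 of 9 were higher in the retina, as were 32.5% of all genes. Of these 7, Cd44 had not been called between control tissues, and the other 6 had been called lower in control retinas. Gfap averaged 2629 ± 331 in cKO retinas at ZT6, against 863 ± 201 in cKO pineal glands, and Lcn2 1625 ± 519 in cKO retinas, against 142 ± 14.5 in cKO pineal glands. Timp1 (0.31 ± 0.20, adjusted p = 0.18) and Vim (0.19 ± 0.09, adjusted p = 0.059) were not called between the tissues of cKO animals.

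Over all 8 groups, cKO retinas at ZT20 had the highest mean and cKO retinas at ZT6 the next for 7 of 9 genes (Gfap, Serpina3n, Lcn2, A2m, Cp, Cd44 and S100a6), and the ranges of these 2 groups overlapped for each. For Gfap the 4 pineal groups followed, from 957 ± 206 in cKO glands at ZT20 to 796 ± 173 in control glands at ZT20, with overlapping ranges, and then control retinas with 403 ± 101 at ZT6 and 271 ± 115 at ZT20. Serpina3n had the same order of tissues, with pineal means of 815 ± 248 in cKO and 630 ± 103 in control glands at ZT6 above both control retina groups (247 ± 182 at ZT6 and 256 ± 143 at ZT20). Cp and S100a6 likewise had all 4 pineal means between those of cKO and control retinas, the gap between control retinas at ZT6 and the pineal groups being clear for Cp (1495 to 2073 in control retinas, 2186.5 or more in pineal glands) and absent for S100a6. After cKO retinas, A2m had its highest mean in cKO pineal glands at ZT6 (1318 ± 455) and its lowest in control retinas (519.9 ± 162 at ZT20 and 436 ± 122 at ZT6). Lcn2 was lowest in cKO pineal glands at ZT6 (142 ± 14.5) and in control retinas at ZT20 (142 ± 59.6), which did not differ beyond their spread. Cd44 had all 4 pineal means (393 ± 52.3 in cKO glands at ZT6 to 499 ± 121 in control glands at ZT20) below those of control retinas (655 ± 398 at ZT6 and 699 ± 220.5 at ZT20), with overlapping ranges of neighbours. This order did not hold for its further probe set that passed the filter, which averaged 511 ± 120.4 in control retinas and 548 ± 126 in control pineal glands at ZT20. For Timp1 the control pineal groups had the highest means (509.9 ± 168 at ZT20 and 499 ± 77.1 at ZT6), followed by cKO retinas (459 ± 158 at ZT20 and 438 ± 83.4 at ZT6), cKO pineal glands and, far below, control retinas. Vim spanned a narrow range, 9477 ± 889 in cKO retinas at ZT20 to 6475 ± 1312 in control retinas at ZT6, and all neighbours in its order overlapped.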

How the data were processed

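Deposited values were linear probe set intensities, one table for 24 arrays. The authors' software was GCOS, per the submitters' processing notes, and array scaling, detection calls and filters are not given in the sources used here. Per the labels' protocols, RNA of 6 pooled tissues was amplified and biotin-labelled with NuGEN kits before hybridisation. Values were used as deposited, as log2(intensity + 16), with 1 probe set per gene (highest mean), named from the platform annotation (34945 of 45101 probe sets with 1 symbol, 932 with several, 9224 with none). Genes above the array median on at least 3 arrays were tested with limma 3.58.1 in R 4.3.3 (lmFit, eBayes with a mean-variance trend), 1 mean per group, by tissue (12 arrays) or over all 24, with Benjamini-Hochberg adjustment over 11693 (retina), 11936 (pineal) or 12881 genes and a threshold of 0.05. The script was tested on simulated data. The number of arrays limits precision, and nothing in the labels ties pools to separate cages or days. No 2 arrays were duplicates. Members are named throughout, further genes are the up to 4 largest called genes of a list plus listed pathway genes, and likeness names the 5 highest correlations. Members and lists were chosen with earlier results of these data known, so no list is independent evidence. Pool numbers were checked for pairing: correlations of same-numbered pools' deviations ran from -0.53 to 0.41 in the retina and from -0.22 to 0.35 in the pineal gland. Their median was -0.009 in the retina, against 0.043 for differently numbered pools, and 0.126 in the pineal gland, against -0.038. In the pineal gland 10 of 18 same-numbered pairs were over 0.1, against 6 of 36 others. Only cKO against control pineal glands at ZT6 had every pair over 0.1 (0.19, 0.35 and 0.32), and the block changed no member call there. Alternatives covered array scaling, pseudocount, filter, trend, probe set rule, pool number as a block and left-out pools.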

Additional observations from a re-analysis of the deposited data

Results flagged for a closer look

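The cKO effect differed between the tissues by the interaction test for each of the 9 genes, being higher in the retina by 4.21 for Lcn2, 3.68 for Timp1, 3.45 for Serpina3n, 2.95 for Gfap, 2.78 for A2m, 2.35 for S100a6, 2.24 for Cd44, 1.40 for Cp and 0.54 for Vim on the log2 scale. Over all genes, 20.5% had a cKO effect called higher in the retina. All 3 cKO pools lay above all 3 control pools in the retina at both times for each of the 9 genes. This was so for 36.5% of all genes at ZT6 and 17.9% at ZT20, and Timp1 had passed the retina filter only through cKO pools. The value for Vim was not called under median centring or trimmed-mean scaling. The cKO effect on A2m differed between times in the pineal gland by -1.30 (adjusted p = 0.012, limma). The signals behind it were 508, 1022 and 631 in cKO and 997, 685 and 785 in control glands at ZT20, and 1152, 1833 and 969 in cKO and 391, 866 and 627 in control glands at ZT6. It was not called under any of the 3 other scalings.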

How the results depend on the processing

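Counts of the 9 genes called in the retina stayed within 1.5 times of those reported under every alternative run, from 7 to 9 at ZT6, 8 to 9 at ZT20 and 8 to 9 in the mean of both times (9 to 9 without 1 pool). Between tissues they ran from 8 to 9 for the cKO effect, with 8 under median centring and trimmed-mean scaling and 9 to 9 without 1 pool, from 7 to 9 in control and from 7 to 8 in cKO animals. Day against night in the retina gave 0 to 0 without 1 pool. Pineal counts were less stable. At ZT6 (2 called) there were 4 under median centring and 0 under quantile normalisation, trimmed-mean scaling, no filter, no mean-variance trend and the mean of all probe sets, and 0 to 2 without 1 pool. In the mean of both times (3 called, lower) there were 0 under those same 5 settings and 0 to 4 without 1 pool, and median centring called 3 other genes higher, among them Vim, which turned from -0.08 to 0.18 (adjusted p = 0.024). At ZT20 (0 called) there were 0 to 3 without 1 pool and 2 without cKO pools 2 and 3. Between ZT20 and ZT6 in cKO glands (2 called) there were 0 under median centring, quantile normalisation, trimmed-mean scaling, no filter and no trend, 1 with a pseudocount of 1, with the mean of all probe sets, with the replicate block and without cKO ZT20 pools 2 and 3, and 0 to 2 without 1 pool. In control glands (0 called) there was 1 under quantile normalisation and without cKO ZT20 pools 2 and 3, and 0 to 3 without 1 pool. For the change of the cKO effect between times (1 called) there were 0 under the 3 scalings, no filter, no trend and the mean of all probe sets, and 0 to 2 without 1 pool. With pool number as a block, 9 were called in the retina at ZT20, 9 between control tissues and 8 between cKO tissues, and the block changed no other count but that of cKO glands given above. Median centring raised the pineal genes called higher at ZT6 to 4014, from 88 as deposited. The causes were not tested. Dim genes such as Timp1 in control retinas are limited by signal over background, which the deposited values do not give.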
